A study of Homo sapiens with 18 samples.

Results

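KLRC1, KLRC2, KLRC3 and KLRC4 encode the NKG2 lectin receptors, and they were taken by gene symbol because they have been named as estrogen receptor targets in osteosarcoma cells. They are 4 of 18665 named genes on the array and had 9 of its 48803 probes, and 3 of these 9 were kept among the 24226 probes tested. A probe was kept where its detection p-value was below 0.01 on at least 3 of the 18 arrays. The kept probes were 2 of KLRC2, ILMN_2059357 and ILMN_1707328, and 1 of KLRC3, ILMN_2386790. All 3 probes of KLRC1, the single probe of KLRC4 and the other 2 probes of KLRC3 fell short of that rule.

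The study used U2OS, a human osteosarcoma cell line, stably transfected with a vector that expresses an estrogen receptor once doxycycline is added. A line with an ERβ vector and a line with an ERα vector were each sampled with doxycycline plus the estrogen E2, with doxycycline alone, and without doxycycline, at 3 arrays a group. All 6 groups share the U2OS background and a stably integrated vector, and neither line was sampled with E2 in the absence of doxycycline. Doses, times and the number of clones behind each line are not given in the sources used here. Nothing in the labels states whether a group's arrays stem from separate cultures, and the p-values therefore cover array-to-array spread that could be technical.

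NKG2 proteins are type II membrane receptors of natural killer cells and of some T cells, where most of them pair with CD94, the product of KLRD1, and bind the non-classical class I molecule HLA-E. NKG2A, from KLRC1, carries inhibitory motifs in its tail, whereas NKG2C, from KLRC2, signals activation through the adaptor DAP12, the product of TYROBP. NKG2E comes from KLRC3 and NKG2F from KLRC4. The more distant NKG2D, from KLRK1, forms homodimers that signal through DAP10, the product of HCST, and bind the stress-induced MIC and ULBP proteins. The genes lie side by side in the natural killer gene complex, and bone cells are not among the cells these receptors are known for.

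In the RefSeq annotation of GRCh38.p14 the 4 genes lie on the minus strand of chromosome 12 within chr12:10407384-10454685, a stretch of 47302 bases. Their order by coordinate is KLRC4 at chr12:10407384-10409757, KLRC3 at chr12:10412315-10420595, KLRC2 at chr12:10430599-10436010 and KLRC1 at chr12:10442264-10454685. The nearest annotated genes on the KLRC4 side are the KLRC4-KLRK1 readthrough, KLRK1 and KLRK1-AS1. Those on the KLRC1 side are LOC105369657, EIF2S3B and LOC105369658. Of these 6 neighbours KLRK1 had a probe. The probe annotation used here gives no coordinates within the transcripts.

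RefSeq promoter windows were matched for KLRC3, KLRC4 and KLRC1, and were not matched for KLRC2. One window of each is shown because an estrogen receptor can act through estrogen response elements near a start site, and because KLRC3 had a called probe while KLRC4 and KLRC1 were not detected. Each is the stretch of 250 bases upstream of an annotated start, on the minus strand of GRCh38.p14, with capitals marking a half-site. The KLRC3 window is chr12:10420596-10420845, the KLRC4 window chr12:10409758-10410007 and the KLRC1 window chr12:10454686-10454935. KLRC1 has 3 annotated windows, and the one furthest upstream is printed.
KLRC3: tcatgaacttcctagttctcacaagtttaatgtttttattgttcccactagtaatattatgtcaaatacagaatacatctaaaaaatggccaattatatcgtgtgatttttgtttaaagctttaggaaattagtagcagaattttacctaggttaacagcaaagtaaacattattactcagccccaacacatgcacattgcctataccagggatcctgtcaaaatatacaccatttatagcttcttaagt
KLRC4: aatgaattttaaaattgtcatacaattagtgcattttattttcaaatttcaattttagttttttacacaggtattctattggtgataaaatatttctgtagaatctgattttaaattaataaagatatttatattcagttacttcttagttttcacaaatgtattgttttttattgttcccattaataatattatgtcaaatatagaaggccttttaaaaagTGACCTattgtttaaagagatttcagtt
KLRC1: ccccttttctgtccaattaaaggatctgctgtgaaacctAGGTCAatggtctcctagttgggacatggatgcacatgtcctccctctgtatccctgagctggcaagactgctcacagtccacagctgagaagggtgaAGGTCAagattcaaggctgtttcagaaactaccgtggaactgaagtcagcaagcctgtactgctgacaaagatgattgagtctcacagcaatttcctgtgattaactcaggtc
Both strands were searched for the half-site AGGTCA, for the full element, which is AGGTCA and its reverse complement TGACCT with any 3 bases between them and so contains 2 half-sites, and for the AP-1 site TGANTCA. The KLRC3 window held none of these letters, and its GC content was 32.0%. In the KLRC4 window, 1 half-site lay 28 bases upstream of the start, and in the printed KLRC1 window 2 lay 211 and 113 bases upstream. The KLRC1 window at chr12:10454504-10454753 also held 2 half-sites, and that at chr12:10453378-10453627 held none. The half-site stood in 12.1% of 35116 promoter windows of the same length, the AP-1 site in 6.57% and the full element in 0.00285%. These matches describe the letters of the windows only.

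Each array detected 40.6% to 46.1% of its probes. Array levels of 1 group correlated at 0.978 to 0.993, and no pair of arrays was identical. The ESR2 probe ILMN_2390457, which reads the ERβ transcript, averaged 16.04 ± 0.01 in ERβ cells with doxycycline plus E2, 15.94 ± 0.14 with doxycycline and 11.26 ± 0.14 without doxycycline on the log2 scale (SD, n = 3). It was not detected in ERα cells without E2, and 2 of 3 ERα arrays with doxycycline plus E2 detected it. The single ESR1 probe stayed near background in both lines, with 0 of 9 ERβ arrays and 3 of 9 ERα arrays detecting it, and does not check the ERα vector. Of 17 markers of natural killer and T cells, PTPRC, CD2, CD3E, NCR1, NCR3, NKG7, PRF1 and ITGAL were not detected on any array. NCAM1 was detected on every array, CD7 and CD247 on every ERβ array, and CD8A on every ERα array. GNLY was detected on every ERα array with doxycycline plus E2. Of 8 with a kept probe, CD7 and CD247 were called higher and KLRD1 lower with E2 in ERα cells, where 8.55% of all probes were called higher. With doxycycline in ERβ cells 0 were called higher, and CD247 and KLRD1 were called lower. CD7 ILMN_1792538 rose by 3.14 with doxycycline plus E2 in ERα cells (adjusted p = 9.46e-09, limma). Their part in the KLRC result was not tested. Of 10 osteoblast lineage markers, RUNX2, TWIST1, COL1A1, SPARC, ALPL and SPP1 were detected on every array, DLX5 on none, and COL1A2 on none outside ERα cells without doxycycline. The summed linear level of the natural killer and T cell probes ranged from 3903 to 4108 in ERβ cells with doxycycline plus E2, 3827 to 4297 with doxycycline and 4751 to 5040 without doxycycline. This sum runs over 34 probes and includes KLRD1, which fell with doxycycline in ERβ cells and with E2 in ERα cells. The sums therefore do not show the level of the other markers alone. In ERα cells these sums were 3459 to 3571, 3729 to 3960 and 3734 to 3967 for the same 3 treatments.

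The KLRC2 probe ILMN_2059357 and the KLRC3 probe ILMN_2386790 gave signal in these osteosarcoma cells, and both were highest where ERβ had been induced. The folds below are from these probes. KLRC3 ILMN_1691287 was detected on 0 of 18 arrays and KLRC3 ILMN_1781897 on 2. Signal from KLRC2 and from KLRC3 cannot be told apart here. In ERβ cells doxycycline alone raised KLRC2 14.0-fold and KLRC3 16.1-fold, and E2 added on top made no called difference. In ERα cells doxycycline alone gave no called change, while E2 raised KLRC2 3.35-fold and KLRC3 3.42-fold. Even without doxycycline both genes stood higher in the ERβ line than in the ERα line.

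Levels here are log2 of the background-corrected and quantile-normalized probe signal. The KLRC2 probe ILMN_2059357 was at 14.66, 14.65 and 14.89 in ERβ cells with doxycycline plus E2, at 14.26, 14.41 and 14.48 with doxycycline, and at 10.59, 10.55 and 10.60 without doxycycline. In ERα cells it was at 9.44, 9.18 and 9.64 with doxycycline plus E2, at 7.75, 7.58 and 7.70 with doxycycline, and at 7.42, 7.33 and 8.05 without doxycycline. All 18 arrays detected it, every ERβ array stood above every ERα array, and only the ERα groups with doxycycline and without doxycycline overlapped. On the deposited scale its signal was 25556 to 33851 in ERβ cells with doxycycline plus E2 and 331 to 432 in ERα cells without doxycycline.

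The KLRC3 probe ILMN_2386790 was at 13.49, 13.36 and 13.56 in ERβ cells with doxycycline plus E2, at 12.94, 13.43 and 12.94 with doxycycline, and at 8.94, 9.02 and 9.32 without doxycycline. In ERα cells it was at 8.52, 8.76 and 8.94 with doxycycline plus E2, at 7.04, 6.69 and 7.17 with doxycycline, and at 6.15, 6.98 and 7.17 without doxycycline. It was detected on 17 of 18 arrays, the exception being the uninduced ERα array at 6.15. No ERβ array lay below an ERα array, although the lowest uninduced ERβ array and the highest ERα array with E2 both rounded to 8.94.

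**Figure D1:**
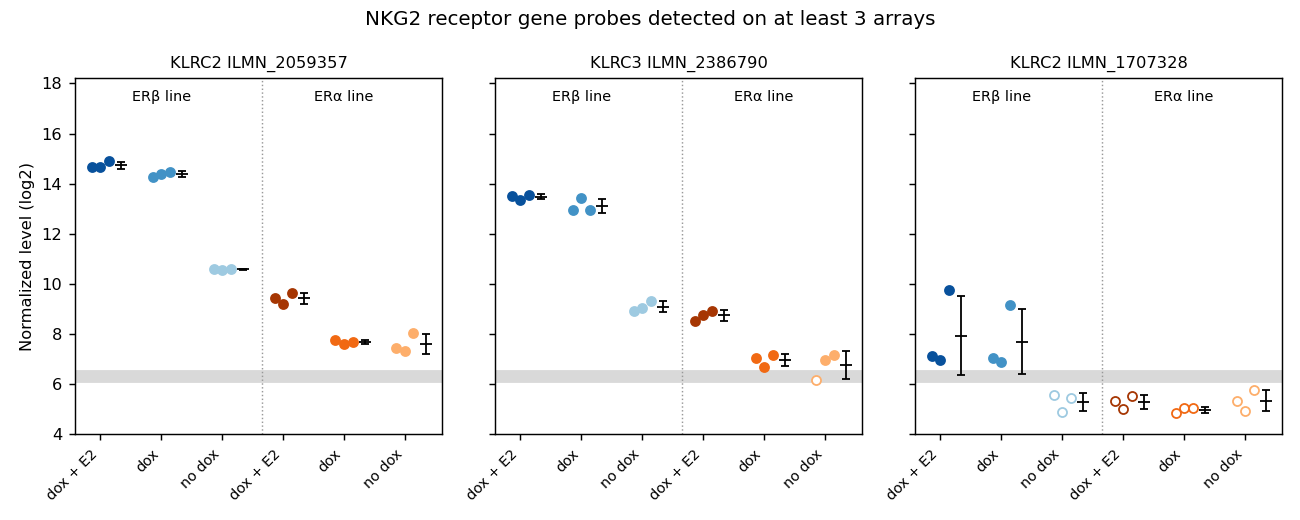
Log2 levels (vertical axis) of the 3 kept KLRC probes on each of the 18 arrays, by line and treatment (horizontal axis), with the mean and SD of each group beside its points; open points are arrays on which the probe was not detected, and the grey band spans the lowest detected levels of the arrays, 6.08 to 6.52. KLRC2 ILMN_2059357 reaches a mean of 14.73 in ERβ cells with doxycycline plus E2, against 7.60 in ERα cells without doxycycline.

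The groups took the same order at KLRC2 ILMN_2059357 and KLRC3 ILMN_2386790, from ERα cells without doxycycline and with doxycycline, through ERα cells with E2 and uninduced ERβ cells, to ERβ cells with doxycycline and with doxycycline plus E2. The lowest neighbours, ERα with and without doxycycline, overlapped at both probes. KLRC2 ILMN_1707328 was undetected in the lower 4 groups and gives them no order. Uninduced ERβ cells stood above E2-treated ERα cells by 2.24-fold for KLRC2 and 1.28-fold for KLRC3, a pair of groups that differs in line and in treatment and was not tested. ERβ cells with doxycycline plus E2 and with doxycycline overlapped for KLRC3 and did not overlap for KLRC2.

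In the ERβ line doxycycline raised KLRC2 ILMN_2059357 and KLRC3 ILMN_2386790 far beyond the spread between arrays. KLRC2 ILMN_2059357 averaged 14.38 ± 0.11 in ERβ cells with doxycycline and 10.58 ± 0.02 without doxycycline (SD, n = 3), a log2 change of 3.80 ± 0.16 (SE) with a limma p of 6.77e-10 after Benjamini-Hochberg adjustment over all tested probes. KLRC3 ILMN_2386790 averaged 13.10 ± 0.29 and 9.09 ± 0.20 in the same groups, a change of 4.01 ± 0.23 with an adjusted limma p of 1.36e-08. Among 24226 probes these changes ranked 35 for KLRC2 and 30 for KLRC3 from the highest. Both probes were called higher, where 7.7% of all probes were. The third kept probe, KLRC2 ILMN_1707328, passed the filter only through the induced ERβ arrays and is not counted with them.

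Of 4 markers of other blood cells with a kept probe, 1 was called higher with doxycycline in the ERβ line and 3 were not called. Of all probes 7.7% were called higher there. The summed linear level of other blood cell markers, over 5 genes on the array, was 4595 to 5596 with doxycycline and 2670 to 3345 without doxycycline in ERβ cells. In ERα cells it was 1917 to 2517 and 2204 to 3506 for the same treatments. CD79A, a B cell receptor component, was called higher with doxycycline in ERβ cells by 1.70 at ILMN_1734878 (adjusted p = 1.66e-05, limma). LYZ, which encodes lysozyme, was called higher with doxycycline plus E2 by 1.97 (adjusted p = 8.16e-05, limma). In that comparison 2 of the 4 genes were called higher, against 13.7% of all probes. CD68 was detected on every array. Its probe ILMN_1714861 was higher by 2.55 in ERβ cells than in ERα cells with doxycycline plus E2 (adjusted p = 5.85e-09, limma). The brightest CD68 probe, which stands for the gene in these counts, was not called higher in that comparison. HBB was detected on no array. The part of these markers in the KLRC result was not tested.

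The second KLRC2 probe, ILMN_1707328, carries the same transcript accession as the first and gave a far weaker signal. It was at 7.11, 6.95 and 9.74 in ERβ cells with doxycycline plus E2, at 7.03, 6.88 and 9.18 with doxycycline, and undetected on all arrays of the other 4 groups, where it lay between 4.84 and 5.75. In each induced group 1 array, numbered 6 with doxycycline and 9 with doxycycline plus E2, stood more than 2 log2 units above the others, a gap that neither ILMN_2059357 nor the KLRC3 probe ILMN_2386790 showed. This probe passed the filter only through the induced ERβ arrays, so its p-values against uninduced ERβ arrays are no support for a change. Its doxycycline change in the ERβ line was 2.40 ± 0.65 with an adjusted limma p of 0.0209. The change was at least 2.44-fold when the undetected arrays were set to their detection limit. For that bound the mean of the brighter group is taken against, on each undetected array, the higher of the probe's own value and the lowest detected level. The call was lost without array 6, where the change was 1.66 with an adjusted limma p of 0.0917, and without uninduced array 2, where it was 2.19 with an adjusted limma p of 0.0777.

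Doxycycline made no called difference to either gene in the ERα line. KLRC2 ILMN_2059357 averaged 7.68 ± 0.08 with doxycycline and 7.60 ± 0.39 without doxycycline, a change of 0.08 with a 95% interval from -0.27 to 0.42. KLRC3 ILMN_2386790 averaged 6.96 ± 0.25 and 6.77 ± 0.54 in the same groups, a change of 0.20 with an interval from -0.30 to 0.69. Both adjusted limma p-values were 1, and 0 of the 3 KLRC probes were called, where 0.0289% of all probes were, a total of 7. The difference between the lines in their doxycycline response was itself called, at 3.73 ± 0.23 for KLRC2 (adjusted p = 1.03e-07, limma) and 3.81 ± 0.33 for KLRC3 (adjusted p = 2.37e-06, limma). Of the 3 KLRC probes 2 were called higher in that test, against 4.01% of all probes.

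E2 raised both genes in induced ERα cells. KLRC2 ILMN_2059357 averaged 9.42 ± 0.23 with doxycycline plus E2 and 7.68 ± 0.08 with doxycycline, a change of 1.74 ± 0.16 with an adjusted limma p of 1.77e-06. The KLRC3 change was 1.77 ± 0.23 with an adjusted limma p of 5.59e-05, the mean being 8.74 ± 0.21 with E2. For both genes every array with E2 stood above every array with doxycycline alone. Of the 3 KLRC probes 2 were called higher, against 8.55% of all probes, and ILMN_1707328 was not detected in either group.

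In induced ERβ cells the same addition of E2 gave small differences that were not called. KLRC2 ILMN_2059357 averaged 14.73 ± 0.14 with doxycycline plus E2 and 14.38 ± 0.11 with doxycycline, a difference of 0.35 with a 95% interval from 0.01 to 0.69 and an adjusted limma p of 0.241. Its 3 arrays with E2 all lay above the 3 without, and the difference was called with the authors' processed values (0.35, adjusted p = 0.0061, limma). The KLRC3 difference was 0.37 with an interval from -0.12 to 0.86 and an adjusted limma p of 0.451, and was called with the authors' values (0.36, adjusted p = 0.0468, limma). Of the 3 KLRC probes 0 were called, where 9.78% of all probes were.

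The smaller E2 response in the ERβ line was called as a difference between lines. The ERβ response minus the ERα response was -1.39 ± 0.23 for KLRC2 ILMN_2059357 (adjusted p = 0.00153, limma) and -1.40 ± 0.33 for KLRC3 ILMN_2386790 (adjusted p = 0.0173, limma). Of the 3 KLRC probes 2 were called lower in that test, against 3.63% of all probes, and the KLRC3 call was lost without background correction (-0.65, adjusted p = 0.0502, limma). In ERβ cells KLRC2 ILMN_2059357 reached at most 31.3% of the highest signal on the same array with doxycycline, and 46.3% with doxycycline plus E2. The cause of the smaller E2 response in the ERβ line was not tested.

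Against cells without doxycycline, the combined treatment raised both genes in both lines. In ERβ cells KLRC2 ILMN_2059357 was 17.8-fold higher and KLRC3 20.8-fold higher with doxycycline plus E2 (adjusted limma p of 8.56e-11 and 2.08e-09). Both probes were called higher there, against 13.7% of all probes. KLRC2 ILMN_1707328, kept only through the induced ERβ arrays, was at least 2.87-fold higher, and its fitted change of 2.64 became 1.73 without array 9. In ERα cells the folds were 3.53 for KLRC2 and 3.92 for KLRC3 (adjusted limma p of 1.07e-06 and 1.84e-05), and 2 of the 3 probes were called higher, against 10.9% of all probes.

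The lines also differed directly. With doxycycline plus E2, KLRC2 ILMN_2059357 was 39.8-fold and KLRC3 26.6-fold higher in ERβ cells than in ERα cells, and these changes ranked 10 and 15 among 24226 probes (adjusted limma p of 6.91e-12 and 9.23e-10). Without doxycycline the ERβ line was 7.89-fold higher for KLRC2 and 5.02-fold higher for KLRC3 (adjusted limma p of 2.49e-09 and 1.29e-06). Both probes were called higher in each of these comparisons, against 19% of all probes with doxycycline plus E2 and 22.1% without doxycycline. KLRC2 ILMN_1707328, kept only through the induced ERβ arrays, was at least 3.32-fold higher in ERβ cells with doxycycline plus E2 than in ERα cells, where it was undetected. Its fitted change of 2.64 became 1.74 without array 9.

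Other properties separated the lines as well. Uninduced ERβ cells held ESR2 above uninduced ERα cells by at least 31.2-fold at ILMN_2390457 and at least 12.1-fold at ILMN_1740045. ESR1 ILMN_1678535 was called lower in uninduced ERβ cells, where 0 of 3 arrays detected it, than in uninduced ERα cells, where 1 of 3 did (adjusted p = 0.000352, limma). That ESR1 probe passed the filter only through ERα arrays, so its p-value is no support for a difference between the lines. The summed linear level of the osteoblast lineage markers was 18300 to 19709 in uninduced ERβ cells and 46837 to 54099 in uninduced ERα cells. Such a linear sum is carried by its brightest probes. Of 7 such genes with a kept probe, SPP1 and TWIST1 were called higher and ALPL and COL1A1 lower in the ERβ line. Their median change was -0.23, against 0.04 over all tested probes. Of all 24226 probes, 10212 were called in either direction in this comparison and 22.1% were called higher. The part that any of these plays in the KLRC difference was not tested, and the line and its vector cannot be told apart in this design.

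**Figure D2:**
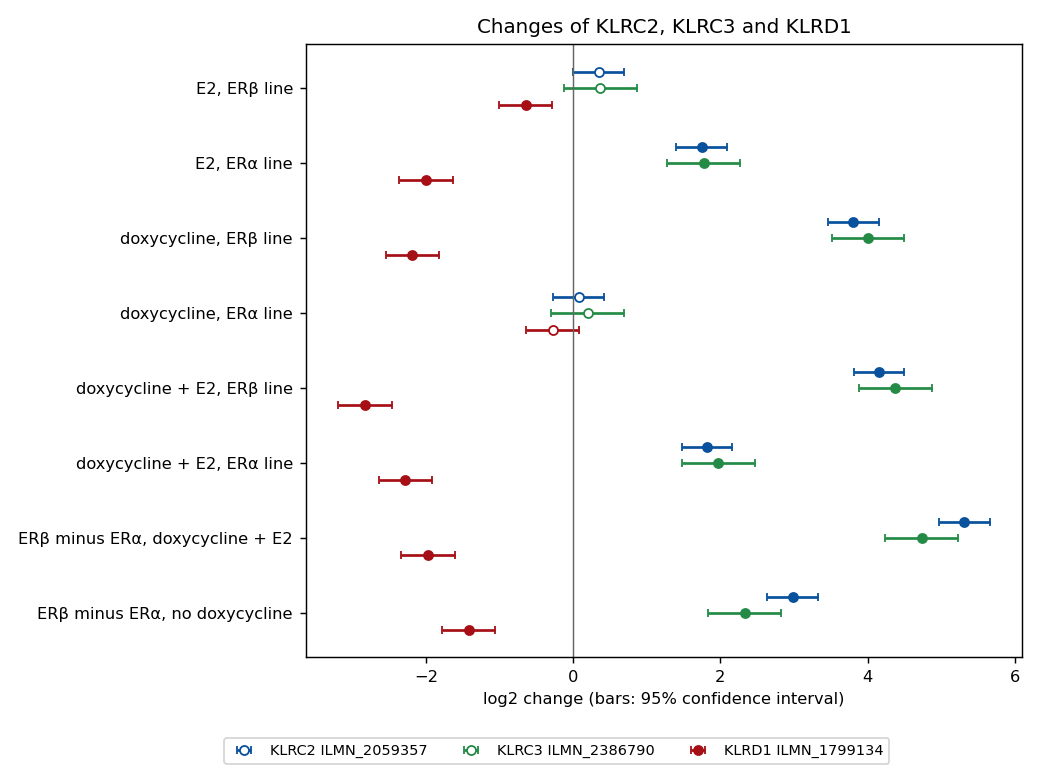
Log2 change (horizontal axis) of KLRC2 ILMN_2059357, KLRC3 ILMN_2386790 and KLRD1 ILMN_1799134 in 8 comparisons, with bars for the 95% confidence interval; filled points were called at an adjusted p below 0.05. The KLRC2 and KLRC3 points lie close together at 3.80 and 4.01 for doxycycline in ERβ cells, with KLRD1 on the other side of 0 at -2.18, and the KLRD1 point for E2 in ERβ cells compares groups that were both undetected.

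The KLRC2 probe ILMN_2059357 and the KLRC3 probe ILMN_2386790 followed each other closely over the arrays. After each was centred on its own mean, their root mean square difference was 0.383 log2 units over 18 arrays, against 0.678 for the nearest other gene of KLRC2 and 0.706 for that of KLRC3. KLRC2 and KLRC3 are paralogs with closely similar transcripts and no probe sequences were used here, so signal from each gene and signal picked up from the other cannot be told apart.

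KLRC1, the inhibitory member, was not detected by any of its 3 probes on any array, at levels from 4.64 to 5.42. KLRC4 was likewise undetected on all 18 arrays, between 4.82 and 6.08. The KLRC3 probe ILMN_1691287 shares its accession with ILMN_2386790, yet it was undetected throughout at 4.82 to 5.71. The remaining KLRC3 probe, ILMN_1781897, for another KLRC3 transcript, was detected on 2 arrays alone, at 6.72 on ERβ array 9 with doxycycline plus E2 and at 6.47 on ERβ array 6 with doxycycline. These are the same 2 arrays on which KLRC2 ILMN_1707328 stood high. Probes of 1 gene therefore disagreed for KLRC2 and for KLRC3, and levels are not compared between probes. Fewer cells that express a gene and less of its RNA per cell cannot be told apart in these bulk samples.

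**Figure D3:**
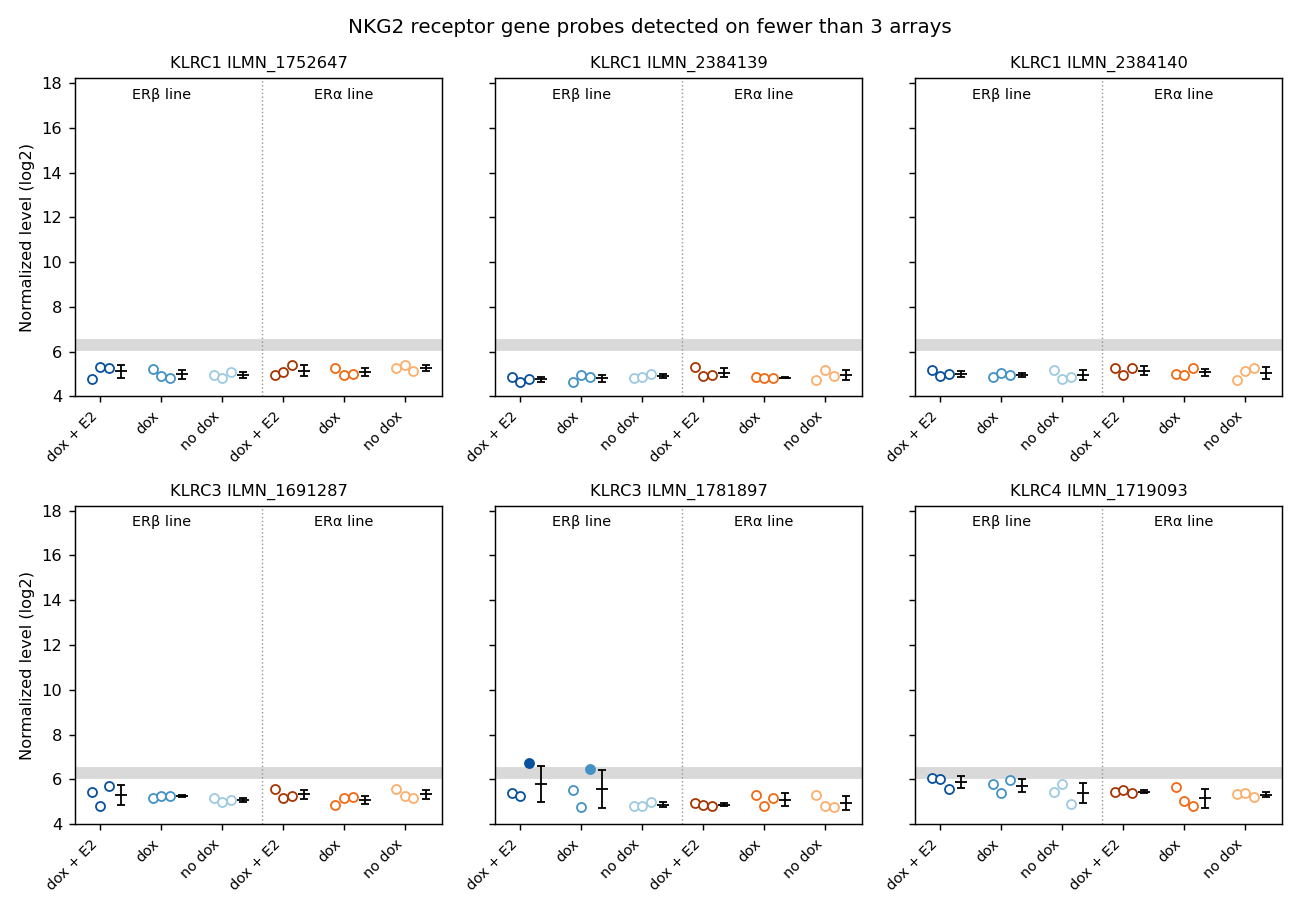
Log2 levels (vertical axis) of the 6 KLRC probes that were not kept, on each of the 18 arrays by line and treatment (horizontal axis), with open points where the probe was not detected and the grey band at the lowest detected levels. Only KLRC3 ILMN_1781897 has filled points, at 6.72 and 6.47 on 1 array each of the induced ERβ groups.

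KLRD1, whose product CD94 pairs with NKG2A, NKG2C and NKG2E, moved opposite to KLRC2 and KLRC3. Its probe ILMN_1799134 was at 4.97, 5.38 and 5.54 in ERβ cells with doxycycline plus E2, at 5.95, 6.27 and 5.61 with doxycycline, and at 8.08, 8.25 and 8.05 without doxycycline. In ERα cells it was at 7.26, 7.21 and 7.33 with doxycycline plus E2, at 9.29, 9.48 and 9.03 with doxycycline, and at 9.56, 9.64 and 9.43 without doxycycline. Both induced ERβ groups were undetected on every array, and the highest levels were in ERα cells that had not received E2.

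Doxycycline lowered KLRD1 in ERβ cells by at least 3.43-fold (log2 change -2.18, adjusted p = 3.7e-07, limma). In ERα cells the doxycycline difference was -0.28 and was not called (adjusted p = 0.993, limma). E2 lowered KLRD1 in induced ERα cells, with means of 7.27 ± 0.06 with doxycycline plus E2 and 9.27 ± 0.23 with doxycycline (SD, n = 3; adjusted p = 7.21e-07, limma). In uninduced cells the ERβ line was lower than the ERα line (log2 change -1.42, adjusted p = 8.55e-06, limma). Without background correction the KLRD1 ILMN_1799134 changes were -0.96 with doxycycline in ERβ cells and -1.27 with E2 in ERα cells, and both were still called. A further probe, ILMN_1797988, was undetected in ERβ cells with doxycycline and at least 2.16-fold lower there than without doxycycline, and it changed by -2.16 with E2 in ERα cells (-1.09 without background correction). The probe ILMN_2386453 was undetected everywhere.

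Of the adaptor genes, TYROBP, which encodes the DAP12 adaptor of NKG2C, was undetected on all 18 arrays. HCST, for DAP10, averaged 7.56 ± 0.32 in ERβ cells with doxycycline plus E2 and 9.33 ± 0.03 in ERα cells with the same treatment, a change of -1.77 (adjusted p = 8.58e-08, limma). KLRK1, for NKG2D, lay near the detection limit and was called in no comparison. Of 18 partner and signalling genes 13 had a kept probe, and 1 of these 13 was called higher and 3 lower with doxycycline in ERβ cells, where 7.7% of all probes were called higher and 7.47% lower, with a median change of -0.26 against -0.03 over all tested probes. PLCG2, a phospholipase downstream of immune receptors, was higher by 1.15 (adjusted p = 1.48e-06, limma), and VAV1, an exchange factor of blood cells, was lower by at least 1.54-fold (adjusted p = 0.00937, limma).

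HLA-E, the ligand of the CD94 and NKG2 pair, was detected on all arrays. It averaged 11.72 ± 0.12 in ERβ cells with doxycycline plus E2 and 10.85 ± 0.15 in ERα cells with the same treatment, a change of 0.87 ± 0.14 (adjusted p = 0.000203, limma). Neither E2 nor doxycycline gave a called HLA-E difference within a line, and the largest, 0.42 with doxycycline in ERβ cells, had an adjusted limma p of 0.0693. Of 19 ligand genes and their helpers 15 had a kept probe, and with doxycycline plus E2 11 of these were called higher and 0 lower in ERβ cells than in ERα cells, with a median change of 0.80 against 0.01 over all tested probes, of which 19% were called higher. Without doxycycline 9 were called higher and 0 lower, where 22.1% of all probes were called higher.

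Among the NKG2D ligands, RAET1L responded to E2 in both lines. Its probe ILMN_1798303 was higher by 1.45 with E2 in ERβ cells and by 1.34 with E2 in ERα cells (adjusted limma p of 0.00017 and 0.000175). RAET1G rose with E2 in ERα cells by 1.40 (adjusted p = 0.000972, limma). MICB was higher in ERβ cells than in ERα cells with doxycycline plus E2, by 1.37 (adjusted p = 0.0014, limma). The HLA-C probe ILMN_1721113 was higher by at least 4.98-fold in uninduced ERβ cells than in uninduced ERα cells, where no array detected it (adjusted p = 6.56e-09, limma). The classical and non-classical HLA genes are close paralogs, so their probes may share signal.

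**Figure D4:**
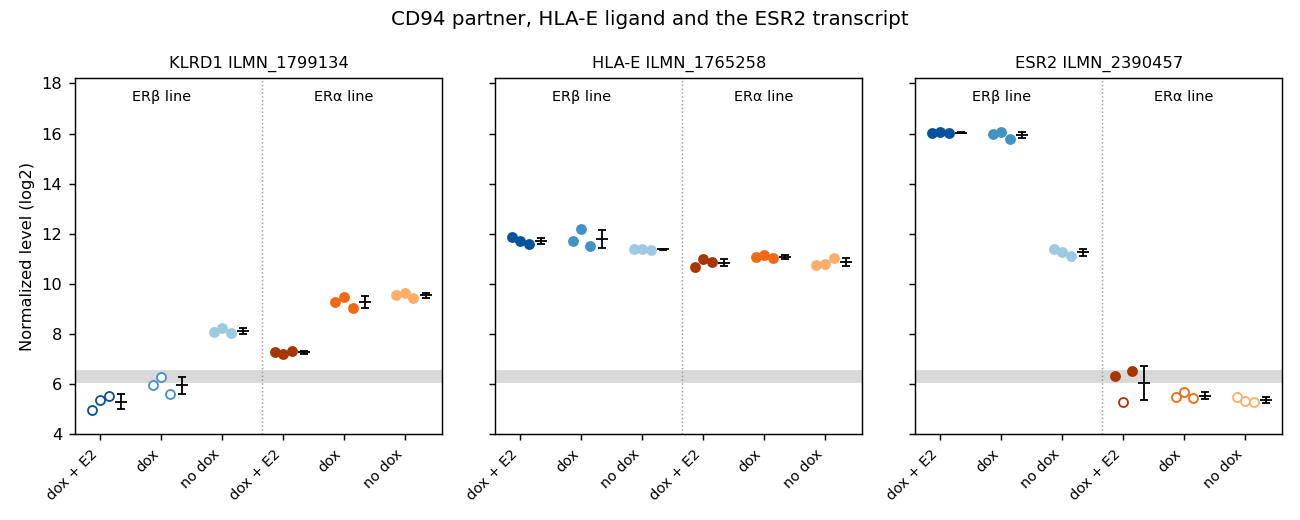
Log2 levels (vertical axis) of KLRD1 ILMN_1799134, HLA-E ILMN_1765258 and ESR2 ILMN_2390457 on each of the 18 arrays, by line and treatment (horizontal axis), drawn as in the plot of the kept KLRC probes. KLRD1 lies in or below the grey detection band in both induced ERβ groups, while HLA-E stays between 10.85 and 11.80 in every group mean.

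Of 23 listed symbols of other lectin genes and neighbours in the natural killer gene complex, 9 had a kept probe. Among the 23, YBX3 and CSDA name the same gene. With doxycycline in ERβ cells, CLEC2B was called higher and CLEC2D, KLRG1 and MAGOHB were called lower, where 7.7% of all probes were called higher and 7.47% lower, with a median over the 9 of -0.05 against -0.03 over all tested probes. CLEC2B encodes a ligand of another killer cell lectin receptor, and it averaged 12.11 ± 0.05 in ERβ cells with doxycycline plus E2 and 10.21 ± 0.19 in ERα cells with the same treatment (adjusted p = 4.54e-08, limma). No gene of this list was called with doxycycline in ERα cells, where 0.0289% of all probes were called.

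The probes with the profile most like KLRC2 ILMN_2059357 over the 18 arrays were those of IFIT3, ZC3HAV1, RSAD2, STING1 and MARCHF4, at root mean square differences of 0.678 to 0.961. The nearest to KLRC3 ILMN_2386790 were MARCHF4, STING1, ZC3HAV1, NLRP3 and IFIT3, at 0.706 to 0.834. IFIT3 and RSAD2 are interferon-induced antiviral genes, ZC3HAV1 encodes a zinc finger antiviral protein, and STING1 encodes an adaptor of DNA sensing. IFIT3 averaged 13.46 in ERβ cells with doxycycline plus E2, 13.77 with doxycycline and 11.06 without doxycycline, and 8.12, 7.36 and 6.72 in ERα cells for the same 3 treatments. STING1 averaged 13.87, 13.30 and 11.15 in those ERβ groups and 10.53, 8.55 and 8.54 in the ERα groups. The nearest to KLRC2 ILMN_1707328 were MMP12, NAT8B, GGT8P, CDA and FBLN1, at 0.724 to 0.765. These are likenesses of profile over arrays that share their line and treatment, and they were not tested.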

How the data were processed

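Total RNA of 18 U2OS samples was labelled with biotin and hybridised to single-colour Illumina arrays, per the labels' protocols. Per the file headers, the authors deposited a table of non-normalized probe intensity beside a detection p-value. They also deposited processed intensity values, made with lumi per the submitters' processing notes. The lumi settings were not given in the sources used here, and these values served as an alternative.

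Deposited signals were background-corrected by normexp with detection p-values, an offset of 16 was added, and arrays were quantile-normalized and set to log2 with neqc in limma 3.58.1 (R 4.3.3). Of 48803 probes, 24226 with a detection p-value below 0.01 on at least 3 arrays were fitted with 6 group means over all 18 arrays, and 10 comparisons were tested by limma's moderated test with Benjamini-Hochberg adjustment over these probes. A call is an adjusted p below 0.05. The fit was tested on simulated data. Residual degrees of freedom were 12, and the number of arrays limits the precision, with a median standard error of 0.165.

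Columns with doxycycline are known by their group but not by replicate, and no rank matching to the processed columns was used. Symbols came from the platform annotation, in which 27578 probes had 1 symbol. Named were all KLRC probes, ESR1, ESR2, KLRD1, HLA-E, genes from the up to 6 called ones of each list with the largest change, the 5 nearest profiles of each probe spanning 1 log2 unit, and the 3 nearest genes on each side of the cluster. Of the called genes that this allowed, STYK1, GABARAPL1, TAP2, HLA-G, PLCG1 and PIK3R1 were not described. Members of lists named beyond this, as one of a small count, were chosen after their values were seen. The members and lists were chosen with earlier results of these data known. Promoter windows and gene positions came from RefSeq tables of GRCh38.p14.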

Additional observations from a re-analysis of the deposited data

Results flagged for a closer look

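The responses of KLRC2 ILMN_2059357 and KLRC3 ILMN_2386790 differed between the lines in 4 of 4 tests of the difference. Each test had 3 arrays a group and limma p-values adjusted over all tested probes. Of all probes, 4.01% were called higher in the doxycycline test and 3.63% lower in the E2 test. Signal from KLRC2 and from KLRC3 cannot be told apart here, so the 4 are not independent results. The doxycycline response of the ERβ line minus that of the ERα line was 3.73 ± 0.23 (SE) for KLRC2 ILMN_2059357 and 3.81 ± 0.33 for KLRC3 ILMN_2386790 (adjusted p of 1.03e-07 and 2.37e-06). The E2 response of the ERβ line minus that of the ERα line was -1.39 ± 0.23 for KLRC2 ILMN_2059357 and -1.40 ± 0.33 for KLRC3 ILMN_2386790 (adjusted p of 0.00153 and 0.0173). At KLRC2 ILMN_1707328, which was undetected in 4 of the 6 groups, the difference was not called for doxycycline (adjusted p = 0.0969) or for E2 (adjusted p = 0.996). All arrays of the ERβ groups with doxycycline stood above all arrays without it at the first 2 probes, and all ERα arrays with E2 stood above those with doxycycline alone.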

How the results depend on the processing

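Each KLRC result was recomputed under other background correction, normalization, filters, weights, sample sets and the authors' processed values, and with each array left out. Of 404 such values 389 kept their direction and their side of the threshold, and 15 did not; the cause was not tested. The doxycycline and combined responses of KLRC2 ILMN_2059357 and KLRC3 ILMN_2386790 in the ERβ line, their E2 responses in the ERα line and their differences between lines without doxycycline and with doxycycline plus E2 were called under every alternative run.

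For KLRC2 ILMN_1707328 the doxycycline response in the ERβ line lost its call without background correction (1.05, adjusted p = 0.0736, limma) and with only the arrays compared (2.40, adjusted p = 0.0759, limma). With single arrays left out it ranged from 1.66 to 2.81, and the call was lost without uninduced array 2 (2.19) and without doxycycline array 6. Its E2 difference in the ERβ line ranged from -0.67 to 0.98 with single arrays left out, and turned sign without doxycycline array 4 (-0.10) or 5 (-0.17) or E2 array 9 (-0.67). The E2 difference of KLRC2 ILMN_2059357 in the ERβ line became called with array weights (0.39, adjusted p = 0.0242, limma) and with the authors' processed values (0.35, adjusted p = 0.0061, limma). For KLRC3 ILMN_2386790 it became called with the authors' values (0.36, adjusted p = 0.0468, limma), and its difference of E2 responses between lines lost its call without background correction (-0.65, adjusted p = 0.0502, limma). With single arrays left out, the uncalled doxycycline difference in the ERα line ranged from -0.060 to 0.30 for KLRC2 ILMN_2059357, also -0.01 without uninduced array 1, and from -0.11 to 0.40 for KLRC3 ILMN_2386790.

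The replicate block could be fitted on the authors' processed values alone, where it gave 0.35 (adjusted p = 0.0165, limma) for the E2 difference of KLRC2 ILMN_2059357 in the ERβ line. Deviations of same-numbered columns there correlated at -0.38 to 0.04 over 45 pairs (median -0.17), so the pairing of the samples by number is not borne out over all probes. Whether single replicates share a batch was not tested.

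Some counts of called probes moved by more than 1.5 times. For E2 in the ERβ line 2369 probes were called, against 1141 with only the arrays compared and 4683 with array weights. For doxycycline in the ERβ line 3675 were called, against 1730 with only the arrays compared and 6748 with the authors' values. For doxycycline in the ERα line 7 were called, against 0 and 69 under these same settings, while 1363 had an unadjusted limma p below 0.05. With the authors' values 6835 probes in place of 4085 were called for E2 in the ERα line, 8155 in place of 4964 for doxycycline plus E2 in the ERα line, 3374 in place of 1474 for the difference of E2 responses and 3831 in place of 1691 for the difference of doxycycline responses. With only the arrays compared, 3255 were called for doxycycline plus E2 in the ERα line. Comparisons of KLRC2 ILMN_1707328 between groups undetected on every array were given no value, and profile likeness, motifs and detection counts were not recomputed.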

Other observations

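Beyond the comparisons above, the authors' processed values carry replicate numbers for every column, and in them the dim KLRC2 probe was highest in replicate 3 of both induced ERβ groups. KLRC2 ILMN_1707328 had 212.8, 239.2 and 441.7 in replicates 1, 2 and 3 of ERβ cells with doxycycline plus E2, against 207.7, 233.4 and 329.6 with doxycycline. The KLRC3 probe ILMN_1781897 had 116.4, 139 and 156.3 in the same ERβ replicates with doxycycline plus E2, against 119.9, 100.2 and 147.1 with doxycycline. These values are the authors' own linear intensities, whose background correction is unstated. Whether replicate 3 differs in handling was not tested.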
